A study of Homo sapiens with 8 samples.

Results

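A set of 7 miRNAs was detected on both arrays of PBS-treated BT474 cells and on neither array of trastuzumab-treated BT474 cells. The set holds hsa-miR-1825, hsa-miR-483-3p, hsa-miR-466, hsa-miR-4290, hsa-miR-3149, hsa-miR-629-3p and hsa-miR-1305, which are 7 of the 2006 human miRNAs on the array. They were chosen for detection on 2 of the 4 BT474 arrays together with a lower summed signal after trastuzumab, so that their values in BT474 are given as a description and without a test. This rule did not use SKBR3, and only the SKBR3 comparison of these miRNAs was tested. The rule was met by 12 miRNAs, and how these 7 were taken from them is not stated.

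BT474 is a human breast cancer cell line of the luminal B subtype (ER+, PR+, HER2+), and SKBR3 is one of the HER2+ subtype (ER-, PR-, HER2+). Each line was given 6 μg/mL trastuzumab, a humanized antibody against the extracellular part of the receptor HER2, or PBS as its control, for 144 h, with 2 labelled biological replicates per treatment and line. Each line kept its own culture medium under both treatments, and that of BT474 held bovine insulin. The file of the array labelled SKBR3 PBS replicate 1 was identical to that of BT474 PBS replicate 1 in all 62344 spots, and it was left out, which leaves 4 BT474 arrays and 3 SKBR3 arrays (PBS replicate 2 and trastuzumab replicates 1 and 2).

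miRNAs are short RNAs cut from hairpin precursors, first by Drosha in the nucleus and then by Dicer in the cytoplasm, and 1 or both arms of a hairpin can be loaded onto an Argonaute protein. The seed near the 5′ end pairs with target mRNAs, which are then less translated or degraded more quickly. miR-483-3p, from a hairpin in the growth factor gene IGF2, is known to target the pro-apoptotic gene BBC3, and HER2 signals through the PI3K and MAPK pathways that trastuzumab dampens.

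The mature sequences are shown because a probe reads the miRNA itself and because the seed decides which mRNAs it can pair with. RefSeq (GRCh38.p14) gave a mature sequence for 5 of the 7 miRNAs, and hsa-miR-483-3p and hsa-miR-3149 were not matched. In the following lines each sequence runs 5′ to 3′ and the seed, bases 2 to 8, is in capitals.
hsa-miR-1825: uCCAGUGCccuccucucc
hsa-miR-466: aUACACAUacacgcaacacacau
hsa-miR-4290: uGCCCUCCuuucuucccuc
hsa-miR-629-3p: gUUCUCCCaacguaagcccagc
hsa-miR-1305: uUUUCAACucuaaugggagaga

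The 5 sequences are 18 to 23 bases long, and no other array miRNA with a sequence carried the seed of any of them. hsa-miR-1825 comes from chr20:32237830-32237847 on the plus strand, within the span of POFUT1, the enzyme that puts O-fucose on Notch receptors. hsa-miR-629-3p comes from chr15:70079387-70079408 on the minus strand, within the span of TLE3, a Groucho-family corepressor that is read from the same strand. hsa-miR-1305 comes from chr4:182169343-182169364 on the plus strand, within TENM3, a teneurin cell adhesion protein, again on the strand of the gene. These 3 hairpins thus lie in protein-coding genes, whereas hsa-miR-4290 (chr9:90023451-90023469, minus strand) lies in the long non-coding RNA gene MIR4290HG and hsa-miR-466 (chr3:31161714-31161736, minus strand) in no other annotated gene. Exons and introns were not resolved, since gene spans alone were used.

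Although their seeds differ, hsa-miR-1825 and hsa-miR-4290 share a run of 9 bases, in capitals below, which starts at base 6 of the first and at base 1 of the second.
hsa-miR-1825: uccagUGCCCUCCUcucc
hsa-miR-4290: UGCCCUCCUuucuucccuc

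The run UGCCCUCCU, searched as written on the mature strand, occurred in 2 of the 1687 array miRNAs with a sequence (0.119%), namely in these. It holds the whole seed of hsa-miR-4290, and in hsa-miR-1825 it starts inside the seed and runs past it. The next longest run shared by any of the 5 sequences was 5 bases. Both miRNAs are rich in pyrimidines, with 94.7% C or U in hsa-miR-4290 and 83.3% in hsa-miR-1825, against 59.1% in hsa-miR-629-3p, 47.8% in hsa-miR-466 and 45.5% in hsa-miR-1305. Over the 1687 sequences the median was 48.0%, and 118 of them (6.99%) were above 70%. hsa-miR-466 begins with a unit of 6 bases given as 2 copies in a row. The shared run and the base composition were noticed after the sequences were seen and are a description.

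A single slide carried the 7 arrays. Row 2 of the slide held every PBS array and row 1 every trastuzumab array, and treatment and row cannot be told apart. The BT474 arrays stood in columns 1 and 2 and the SKBR3 arrays in columns 3 and 4, so line and column cannot be told apart either. Detected miRNAs numbered 247 to 256 on the BT474 arrays and 201 to 218 on the SKBR3 arrays. A total of 287 miRNAs were detected on at least 1 BT474 array, of which 11 (3.83%) were detected on both PBS arrays and neither trastuzumab array, and 9 (3.14%) showed the reverse. Of 6 epithelial marker miRNAs (the miR-200 family and miR-205-5p), all were detected on the 4 BT474 arrays and 2 on the SKBR3 arrays, while at most 1 of 6 blood and 1 of 5 stromal or endothelial marker miRNAs was detected on any array. The detection flag of the scanner software was met, for 2006 of 2006 miRNAs on every array, where at least 1 probe had a signal above 3 times its error, and the summed signal was the sum of such probes alone. Where no probe met this, the file gives 0.1, which is a mark for not detected and not a level.

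In PBS-treated BT474 cells the summed signals of the 7 miRNAs ran from 30.0 to 161. hsa-miR-1825 had 140 on PBS replicate 1 and 161 on PBS replicate 2. The PBS values were 155 and 75.9 for hsa-miR-483-3p, which is an arm of the IGF2 hairpin. For hsa-miR-466 they were 139 and 74.4. These 2 miRNAs thus differed between the PBS replicates by 2.04-fold and 1.87-fold, whereas hsa-miR-1825 differed by less.

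The values were 126 and 66.5 for hsa-miR-3149, and 79.3 and 68.4 for hsa-miR-4290. hsa-miR-1305 gave 56.5 and 60.0. hsa-miR-629-3p gave 30.0 and 71.5 and was brighter on replicate 2. In 4 of the 7 miRNAs the number of probes counted in the sum differed between the PBS arrays: for hsa-miR-483-3p, hsa-miR-466, hsa-miR-3149 and hsa-miR-629-3p it was 2, 4, 2 and 1 on replicate 1 and 1, 2, 1 and 2 on replicate 2. Summed over all probes, counted or not, they differed by less, with 155 and 123 for hsa-miR-483-3p, 139 and 119 for hsa-miR-466, 126 and 118 for hsa-miR-3149 and 97.0 and 108 for hsa-miR-629-3p. On both trastuzumab arrays none of the 7 was detected.

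**Figure D1:**
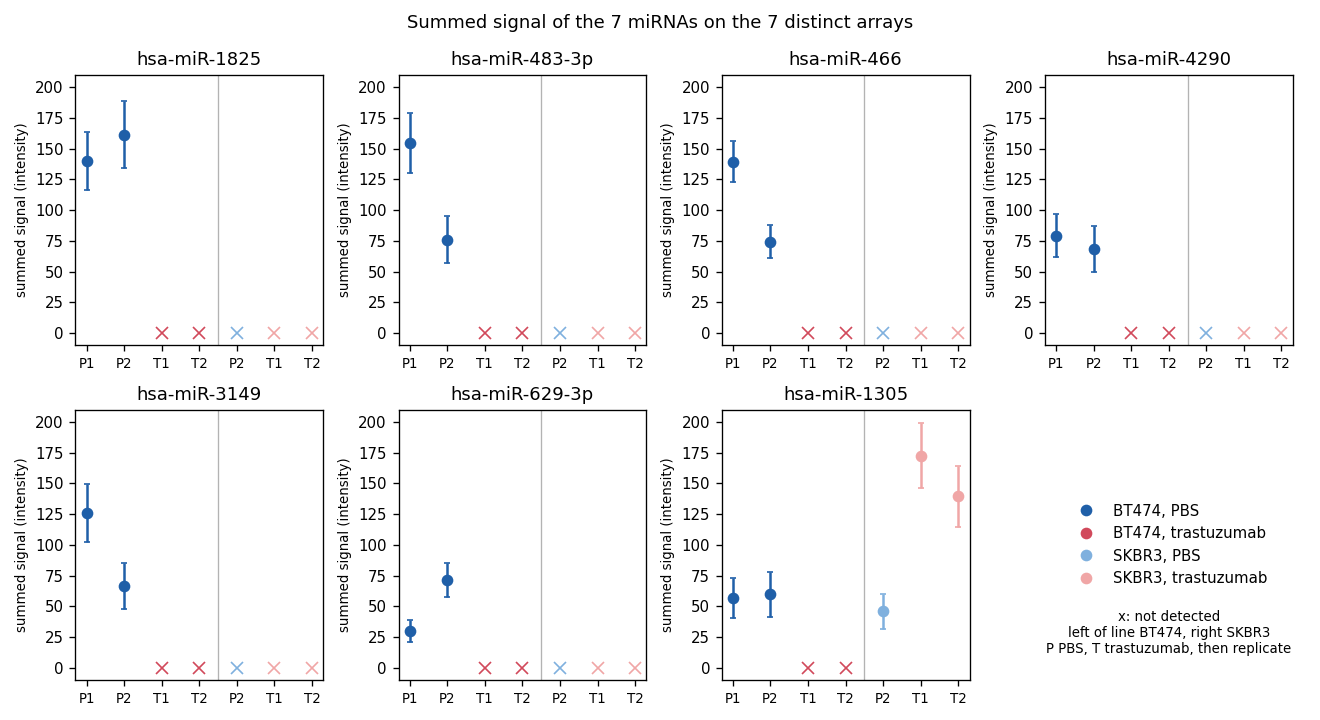
Summed signal in intensity units (vertical axis) of each of the 7 miRNAs on the 4 BT474 arrays (left of the grey line) and the 3 distinct SKBR3 arrays (right), with P for PBS and T for trastuzumab followed by the replicate number. Points carry the software's error of 1 array, and crosses mark arrays without detection: in BT474 all 7 miRNAs have points on the 2 PBS arrays and crosses on the 2 trastuzumab arrays, and hsa-miR-1305 alone has points in SKBR3, from 46.0 to 173.

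Because the summed signal leaves out probes below the line, the mean background-subtracted signal over the 30 spots of each miRNA was read too. It was lower on both trastuzumab arrays than on both PBS arrays in 7 of 7 miRNAs and in 17 of their 18 probes, the exception being a probe of hsa-miR-629-3p. Over all 2006 miRNAs, 425 (21.2%) showed this order in their spot means. The 7 were picked in this contrast, and nothing is read from the higher share.

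The miRNAs differed in the size of this gap. The mean spot signal of hsa-miR-466 was 329 and 280 under PBS against -2.21 and 63.3 under trastuzumab. That of hsa-miR-4290 was 292 and 273 against 49.2 and 64.5. For hsa-miR-483-3p it was 365 and 290 against 57.1 and 154. In the first 2 of these miRNAs the trastuzumab values lay below the mean of the negative control spots of the same array, which was 62.3 and 67.3 under trastuzumab and 38.2 and 38.3 under PBS in BT474. Only for hsa-miR-466 on replicate 1 was this gap (-64.5) larger than the SEM over its spots (24.1).

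hsa-miR-3149 had 297 and 307 under PBS against 75.3 and 161 under trastuzumab. hsa-miR-1825 had 330 and 371 against 108 and 176. hsa-miR-629-3p had 229 and 279 against 122 and 167. These 3 miRNAs lay above the negative control mean on both trastuzumab arrays. For hsa-miR-3149 on replicate 1 the excess was 13.0, less than the SEM of 19.9 over its spots.

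hsa-miR-1305 had the smallest gap, from 241 and 278 under PBS to 181 and 223 under trastuzumab, and its groups lay closer together (223 against 241) than the 2 PBS arrays did. The ratio of the PBS mean to the trastuzumab mean of the spot signal was 2.56 for hsa-miR-3149, 2.46 for hsa-miR-1825, 1.76 for hsa-miR-629-3p and 1.29 for hsa-miR-1305. No ratio is given for hsa-miR-466, hsa-miR-4290 and hsa-miR-483-3p, which lay below the negative controls on at least 1 trastuzumab array. Of the 14 values of the 7 miRNAs on the 2 trastuzumab arrays, 5 were at or below the negative control mean, against 0 of 14 on the PBS arrays. The part of the higher negative controls on the trastuzumab arrays in these results was not tested.

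**Figure D2:**
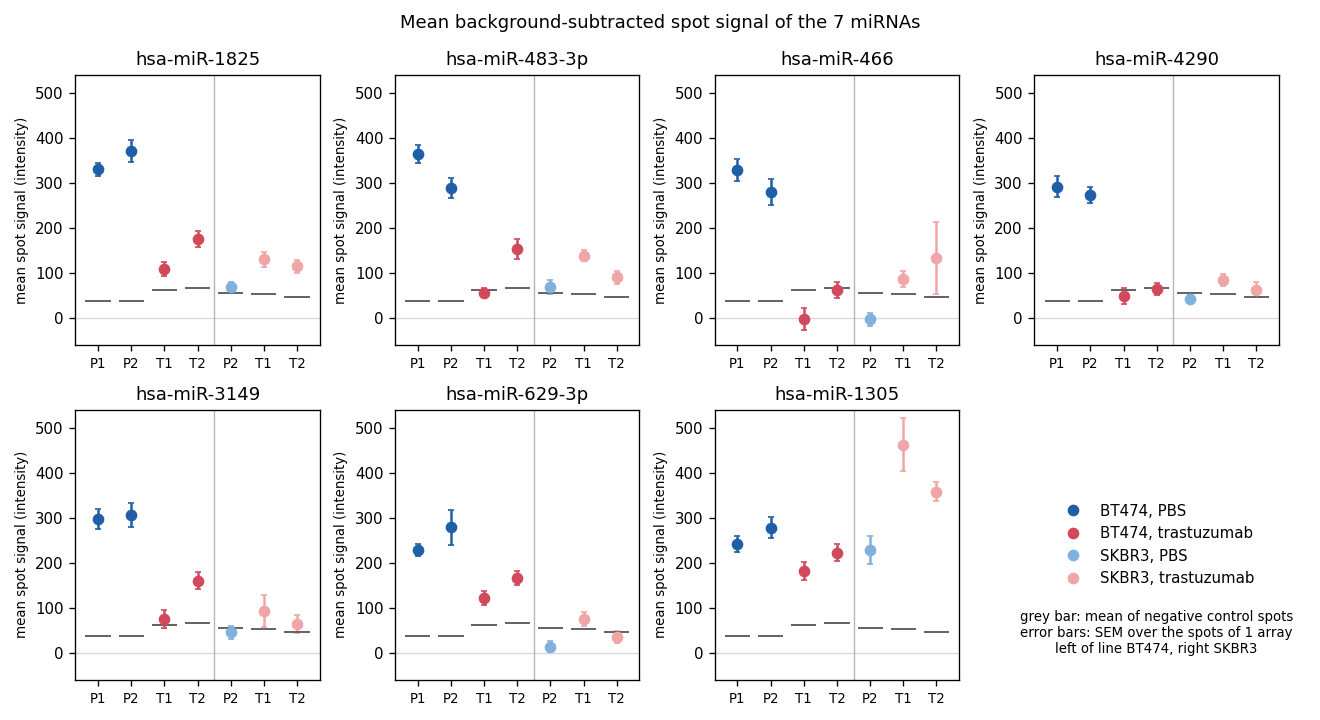
Mean background-subtracted spot signal in intensity units (vertical axis) of each miRNA on the 7 distinct arrays, with the SEM over the 30 spots of 1 array as error bars and the mean of the negative control spots of each array as a grey bar. In BT474 both trastuzumab points lie below both PBS points in all 7 panels, by a wide gap in hsa-miR-466 and hsa-miR-4290 and a narrow one in hsa-miR-1305, and in SKBR3 both trastuzumab points lie above the PBS point.

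The distance to the detection line also differed among the miRNAs. On the BT474 PBS arrays the highest ratio of probe signal to probe error lay between 3.27 and 5.24, and 23 of the 36 probe readings (18 probes on 2 arrays) were above 3. On the trastuzumab arrays 0 of 36 were, and the ratios ran from -0.51 to 2.90. hsa-miR-483-3p had the highest ratio on PBS, 5.24, and hsa-miR-466 reached 5.17 and 4.57 on PBS against -0.01 and 1.25 on trastuzumab. hsa-miR-1305 stood close to the line under both treatments, with highest ratios of 3.46 and 3.27 on PBS and of 2.73 and 2.90 on trastuzumab.

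A line at 2.5 errors, chosen after the data were seen, kept 5 of the 7 miRNAs detected on both PBS arrays and neither trastuzumab array, whereas hsa-miR-629-3p was then detected on 1 trastuzumab array and hsa-miR-1305 on both. At 3.5 errors, also chosen afterwards, the count was again 5, with hsa-miR-629-3p detected on 1 PBS array and hsa-miR-1305 on none. hsa-miR-1825, hsa-miR-483-3p, hsa-miR-466, hsa-miR-4290 and hsa-miR-3149 met the pattern at all 3 lines. Of the 30 spots of a miRNA, between 1 and 14 were well above the local background on a PBS array and at most 1 on a trastuzumab array, so that none of the 7 had more than 15 such spots on any BT474 array. On the trastuzumab arrays the spot means of the 7 still had a median percentile of 97.3 among the miRNAs not detected on the same array, with the lowest, hsa-miR-466 on replicate 1, at 46.8.

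**Figure D3:**
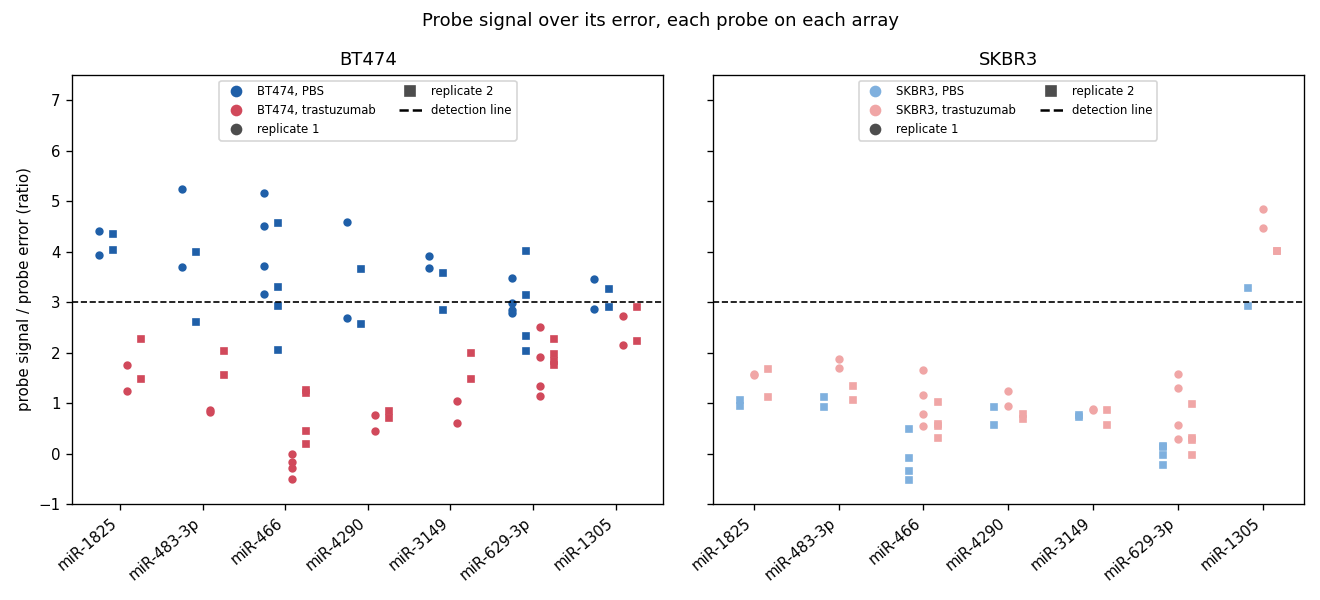
Ratio of probe signal to probe error (vertical axis, no unit) for each probe of each miRNA on each array, BT474 on the left and SKBR3 on the right, with circles for replicate 1, squares for replicate 2 and a dashed detection line at 3. PBS points of BT474 straddle the line between 2.02 and 5.24, all trastuzumab points of BT474 lie below it, and in SKBR3 only probes of hsa-miR-1305 rise above it.

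For the comparison of treatments the summed signals were quantile normalized across the 7 arrays, floored at 10 and put on a log2 scale. On this scale the log2 fold change of trastuzumab over PBS in BT474 was -3.59 ± 0.08 (SE, n = 2 against 2) for hsa-miR-1825, -3.01 ± 0.64 for hsa-miR-483-3p and -2.89 ± 0.62 for hsa-miR-466. It was -2.63 ± 0.68 for hsa-miR-3149, -2.23 ± 0.30 for hsa-miR-4290, -1.79 ± 0.08 for hsa-miR-1305 and -1.66 ± 0.24 for hsa-miR-629-3p. Since the trastuzumab arrays lay at the floor in all 7, the standard errors hold only the spread of the PBS arrays, moderated by limma, and the sizes depend on the floor.

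The sizes differed between the measures, and so did the order of the miRNAs. The median log2 fold change of the 7 was -2.63 in the summed signal, -1.51 in the sum over all probes, -1.24 in the mean spot signal, -1.36 in the log2 values deposited by the authors and -0.59 after normexp background correction. Over all miRNAs with a value the median lay between 0.00 and 0.06 in these 5 measures. In the last 4 hsa-miR-466, whose trastuzumab signals lay below the negative controls, had values between -0.86 and -3.40, and hsa-miR-1305 had values between -0.16 and -0.34. All 7 lay below 0 in these 4 measures, as did 46.1%, 46%, 49.7% and 49.6% of all miRNAs with a value, in that order. Of the 285 miRNAs tested in BT474, limma called 20 (7.02%) lower and 20 (7.02%) higher, a call being a change of more than 2-fold with an unadjusted p below 0.05, and 13 lower and 26 higher without normalization. These shares give the background of that comparison, in which the 7 were picked.

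**Figure D4:**
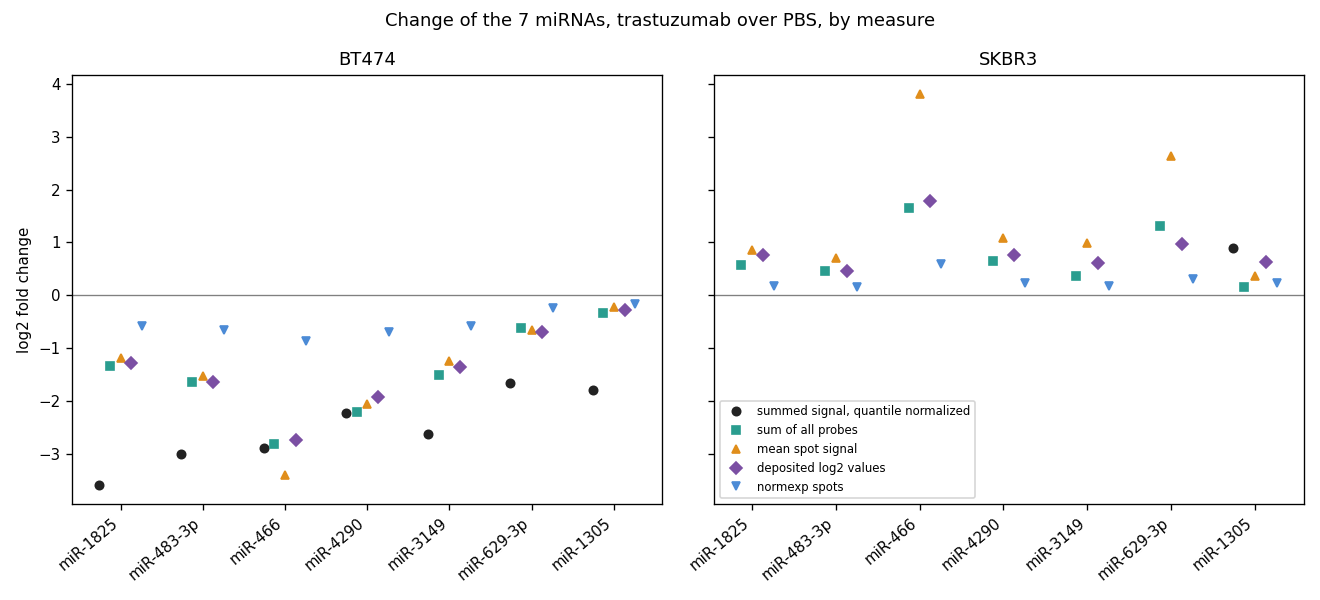
Log2 fold change of trastuzumab over PBS (vertical axis) of the 7 miRNAs by 5 measures, in BT474 on the left and SKBR3 on the right. All points of BT474 lie below 0 and are farthest down in the floored summed signal for all but hsa-miR-466, and all points of SKBR3 lie above 0, where the mean spot signals of hsa-miR-466 and hsa-miR-629-3p are set against PBS values of -2.58 and 13.9 that lie at or near the floor of 10.

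In SKBR3 cells 6 of the 7 miRNAs were undetected throughout, and hsa-miR-1305 was detected on all 3 arrays. Of the 287 miRNAs detected on at least 1 BT474 array, 80 (27.9%) were detected on no SKBR3 array. The summed signal of hsa-miR-1305 was 46.0 on the PBS array and 173 and 140 on the trastuzumab arrays. The sum counted 1 of its 2 probes on the PBS array and 2 on each trastuzumab array. Over all probes, counted or not, it was 86.4 against 173 and 140. Both treated arrays were above the untreated one, whereas in BT474 the same miRNA was detected under PBS only. Its normalized log2 fold change was 0.89 ± 0.06 (SE), with an unadjusted p of 0.0156 and a Benjamini-Hochberg adjusted p of 0.0985 in limma. It therefore met the unadjusted threshold but missed the fold change of 2, and it did not pass the adjusted test. Of the 227 miRNAs tested in SKBR3, limma called 18 (7.93%) higher and 8 (3.52%) lower, and 33 (14.5%) had an unadjusted p under 0.05 with a higher value. With 75th percentile scaling 31 were called higher and 8 lower, and without normalization 31 and 6. At an adjusted p under 0.05 there were 15 (6.61%) in the main normalization and 0 with 75th percentile scaling, where 43 had an unadjusted p under 0.05.

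The call of hsa-miR-1305 depended on the scaling. With 75th percentile scaling its log2 fold change was 1.58 and without normalization 1.76, and both met the fold threshold, as did 1.11 when the SKBR3 arrays were quantile normalized alone. The median of all miRNAs in SKBR3 moved to 0.21 and 0.38 with the first 2 of these, from -0.09 in the main normalization. In the mean spot signal, quantile normalized in the same way, the change was 0.36 ± 0.21 (adjusted p = 0.605 in limma), from 228 on the PBS array to 462 and 358 on the trastuzumab arrays. The log2 fold change was 0.16 in the sum over all probes, 0.63 in the deposited log2 values and 0.22 after normexp. In the mean spot signal and in these measures the unadjusted p in limma was above 0.05 (0.267, 0.173, 0.132 and 0.168, in that order). The lone PBS array was assumed to vary like the trastuzumab arrays in every SKBR3 fit.

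For the other 6 miRNAs the spot means allow a value in SKBR3. hsa-miR-1825 had a mean spot signal of 68.4 on the PBS array and of 131 and 115 on the trastuzumab arrays, which gave a log2 fold change of 0.86 ± 0.07 (adjusted p = 0.153 in limma). hsa-miR-466 had -2.58 on the PBS array and 87.6 and 134 on the trastuzumab arrays, and its log2 fold change of 3.81 ± 0.45 (adjusted p = 0.187 in limma) rests on a PBS value at the floor. On the second trastuzumab array its 30 spots had an SD of 440, against 96.0 on the first. Neither change passed the adjusted test. Before adjustment both had p under 0.05, and that of hsa-miR-1825 missed the fold change of 2.

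hsa-miR-4290 went from 43.1 to 84.8 and 63.6, hsa-miR-483-3p from 69.4 to 139 and 91.2, and hsa-miR-3149 from 46.6 to 94.1 and 65.0. hsa-miR-629-3p went from 13.9 to 75.3 and 34.9. These 4 had adjusted p-values from 0.307 to 0.531 in limma. In all 7 miRNAs both trastuzumab arrays lay above the PBS array, an order found in 568 of 2006 miRNAs (28.3%). All 7 had a log2 fold change above 0, as had 717 of the 1361 miRNAs tested in this measure (52.7%). On the PBS array 4 of the 7 values (hsa-miR-466, hsa-miR-4290, hsa-miR-3149 and hsa-miR-629-3p) were at or below the negative control mean. On the trastuzumab arrays 1 of 14 was, that of hsa-miR-629-3p on replicate 2. The changes of these miRNAs thus start from background. At an unadjusted p under 0.05 and a higher value there were 2 of the 7 in the mean spot signal (hsa-miR-1825 and hsa-miR-466), with 91 of 1361 (6.69%) in all. In this measure limma called 65 miRNAs higher and 128 lower, the opposite balance to the summed signal. There were 0 of the 7 at an adjusted p under 0.05, with 0 of 1361 (0%) in all. The log2 fold changes of the 7 were also above 0 in the sum over all probes, the deposited log2 values and the normexp values, in which 48.2%, 50.2% and 46.9% of all miRNAs were.

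The 6 miRNAs not detected in SKBR3 thus had spot means of -2.58 to 139 there, against 229 to 371 on the BT474 PBS arrays. The negative control spots of the SKBR3 arrays had means of 56.4 on PBS and of 53.5 and 47.4 on trastuzumab. All 6 had higher spot means on both BT474 PBS arrays than on any SKBR3 array, while hsa-miR-1305 had 241 and 278 on the BT474 PBS arrays and 228 on the SKBR3 PBS array. This difference between the lines was not tested, since the BT474 PBS arrays took part in the choice.

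Across the 7 arrays, 6 of the 7 miRNAs followed their common mean profile with a Pearson correlation of 0.90 to 0.97, and hsa-miR-1305, detected in SKBR3 too, had 0.07. These correlations share the floor values of the arrays without detection and are a description. Each miRNA is also part of the mean, and the BT474 pattern was part of the rule by which the 7 were picked. Of 271 other miRNAs above the floor on at least 2 arrays, those most like the mean profile were hsa-miR-182-3p (0.96), hsa-miR-4436b-5p (0.96), hsa-miR-4728-3p (0.95), hsa-miR-877-3p (0.89) and hsa-miR-3676-5p (0.88). The first 4 are the remaining miRNAs detected on both BT474 PBS arrays and neither trastuzumab array, and none of the 4 was detected in SKBR3. hsa-miR-3676-5p was detected on all 7 arrays, with summed signals of 548 and 626 on BT474 PBS, 287 and 367 on BT474 trastuzumab and 191 to 227 in SKBR3.

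The rule as worded was met by 12 miRNAs, the 11 with detection under PBS only and hsa-miR-141-5p, which was detected on replicate 1 of each treatment with summed signals of 28.9 and 22.6. Just outside it, hsa-miR-3646 (115) and hsa-miR-4646-3p (69.3) were detected on BT474 PBS replicate 1 alone. hsa-miR-939-5p was detected on 3 of the 4 arrays, with 137 and 136 on PBS and 64.7 on trastuzumab replicate 2. hsa-miR-4455, likewise on 3, had 224 and 232 on PBS and 188 on trastuzumab replicate 2.

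The 4 other miRNAs detected in BT474 under PBS only had PBS signals of 27.8 to 166. Their sequences are shown, with the seed in capitals, because 3 of them share the pyrimidine-rich composition of hsa-miR-1825 and hsa-miR-4290.
hsa-miR-877-3p: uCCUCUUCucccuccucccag
hsa-miR-4436b-5p: gUCCACUUcugccugcccugcc
hsa-miR-4728-3p: cAUGCUGAccucccuccugccccag
hsa-miR-182-3p: uGGUUCUAgacuugccaacua

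hsa-miR-877-3p comes from chr6:30584397-30584417 (plus strand), within ABCF1, and hsa-miR-182-3p from chr7:129770406-129770426 (minus strand), in no other annotated gene, while hsa-miR-4436b-5p has 2 copies on chromosome 2. In the order of the lines, their share of C and U was 90.5%, 77.3%, 72.0% and 57.1%. Of the 9 miRNAs with a sequence that were detected in BT474 under PBS only, 5 were above 70%. Of the 8 with a sequence among the 9 miRNAs detected under trastuzumab only, 0 were. Of the 233 miRNAs with a sequence that were detected on at least 1 BT474 array, 18 (7.73%) were above 70%. Those detected under trastuzumab only include hsa-miR-499a-5p (127 and 171 under trastuzumab) and hsa-miR-181c-5p (67.0 and 90.3). They were detected on at least 1 SKBR3 array in 6 of 9 cases, and those detected under PBS only in 1 of 11. Of the 287 miRNAs detected in BT474, 207 were (72.1%). These counts were made after the values were seen and were not tested.

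The other arms of the member hairpins gave no signal of their own. hsa-miR-483-5p and hsa-miR-629-5p were undetected on all 7 arrays, with mean spot signals of 13.6 and 35.3 on the BT474 PBS arrays. The arms have different probes, and their levels were not set against each other. hsa-miR-675-5p and hsa-miR-675-3p, from H19, the imprinted neighbour of IGF2, were undetected throughout as well.

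The ERBB2 gene, which encodes HER2, holds the hairpin of hsa-miR-4728 (3p arm at chr17:39726537-39726561, plus strand), and its arms were detected in different lines. Its 3p arm had summed signals of 166 and 67.7 on the BT474 PBS arrays and was not detected on the trastuzumab arrays or in SKBR3. Its log2 fold change in BT474 was -2.86 ± 0.85, a size that depends on the floor, and since it meets the rule by which the 7 were picked no test is given. Its 5p arm was not detected in BT474 and was detected on all 3 SKBR3 arrays, with 44.7 on PBS and 97.9 and 52.0 on trastuzumab (log2 fold change 0.06 ± 0.53, adjusted p = 0.981 in limma). The mean spot signal of the 5p arm was 85.3 and 167 on BT474 PBS and 98.6 and 84.2 on BT474 trastuzumab. In SKBR3 it was 170 on PBS and 277 and 167 on trastuzumab. The undetected value of BT474 PBS replicate 2 thus lay close to the detected values of SKBR3 PBS and SKBR3 trastuzumab replicate 2. The 3p arm thus had the same detection pattern in BT474 as the 7 miRNAs.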

How the data were processed

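One-colour arrays (human miRNAs of miRBase release 19) measured Cy3-labelled total RNA. The authors deposited the intensities as Feature Extraction 11.5.1.1 wrote them, without normalization between arrays, and log2 values per probe, which they had quantile normalized. The latter have equal medians within a line (5.36 in BT474, 5.29 in SKBR3) but not between lines, and their lowest value is log2 of 10. Groups were taken from the labels.

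Summed signals were quantile normalized over the 7 distinct arrays, floored at 10, and compared within each line with limma 3.58.1 (lmFit, eBayes) in R 4.3.3. Calls required more than a 2-fold change with an unadjusted p below 0.05, and p-values were adjusted (Benjamini-Hochberg) over all miRNAs tested. The fit was tested on simulated data without a floor, which does not cover miRNAs at the floor, such as the 7 on the BT474 trastuzumab arrays. Other scalings, floors, background corrections, measures and left-out arrays were tried as alternatives. Few arrays limit precision, and no interval covers slide row.

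Members and lists were chosen with earlier results of these data known. The text names the 7 miRNAs, the other arms of their hairpins, the 5 miRNAs with the most similar profile, 2 neighbours on each side of the detection threshold, miRNAs of the same seed, the 2 arms of hsa-miR-4728 and of hsa-miR-675, and marker miRNAs. Others were chosen after their values were seen: hsa-miR-141-5p, hsa-miR-499a-5p and hsa-miR-181c-5p. Sequences and gene spans come from RefSeq (GRCh38.p14), in which 1687 of the 2006 miRNAs were matched by name. Figures were made with matplotlib 3.10.9 in Python 3.11.15.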

Additional observations from a re-analysis of the deposited data

Results flagged for a closer look

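hsa-miR-1305 had changes of opposite sign in the lines: its normalized log2 fold change was -1.79 in BT474 and 0.89 in SKBR3, a difference of 2.68. The BT474 value is set by the floor, and was -0.79 with a floor of 20. In the mean spot signal the values were -0.22 and 0.36, and in the sum over all probes -0.34 and 0.16. It was undetected on both BT474 trastuzumab arrays and brighter on both SKBR3 trastuzumab arrays than on the SKBR3 PBS array. The difference between the lines was not tested, because hsa-miR-1305 was chosen for its fall in BT474, where its mean spot signal went from 260 to 202.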

How the results depend on the processing

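The 7 miRNAs had a negative log2 fold change in BT474 in every setting run, but its size moved. They were picked for a lower signal on these same arrays, so nothing is read from the common sign. Their median, -2.63 in the main setting, was -3.04 with 75th percentile scaling, -3.19 without normalization, -3.24 with quantile normalization within the line, -3.63 with a floor of 5, -1.63 with a floor of 20, -1.24 in the mean spot signal, -1.51 in the sum of all probe signals, -1.36 in the deposited log2 values and -0.59 after normexp. Leaving out 1 array at a time gave medians from -3.33 (without PBS replicate 2) to -1.80 (without PBS replicate 1). The floor moves it by construction, and for the others the cause was not tested. When detection asked for more than 15 of the 30 spots well above background, the count of 7 miRNAs detected under PBS only became 0.

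Of all miRNAs in BT474, 20 were called lower in the main setting. Lower calls numbered 44 in the deposited log2 values, 69 in the mean spot signal and 36 in the sum of all probe signals. They numbered 13 with a floor of 20, 13 without normalization, 11 with an ordinary t-test per miRNA and 2 after normexp. The paper names a t-test with a random variance model, and that model was not used in this t-test. Of all miRNAs in SKBR3, 18 were called higher and 8 lower. Higher calls numbered 31 with 75th percentile scaling, 31 without normalization and 60 in the deposited log2 values (59 lower). They numbered 65 in the mean spot signal (128 lower) and 41 in the sum of all probe signals (37 lower). With the ordinary t-test 11 were called higher, and after normexp 9. After Benjamini-Hochberg adjustment the ordinary t-test left 3 in BT474 and 0 in SKBR3, where 22 had an unadjusted p under 0.05. In SKBR3 limma left 15, but 0 with 75th percentile scaling. It also left 0 of 207 when detection on at least 2 arrays was asked (64 with an unadjusted p under 0.05).

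The log2 fold change of hsa-miR-1305 in SKBR3, 0.89 in the main setting, became a call with 75th percentile scaling (1.58), without normalization (1.76) and with quantile normalization within the line (1.11). The change was 0.36 in the mean spot signal, 0.16 in the sum of all probe signals, 0.63 in the deposited log2 values and 0.22 after normexp. With the ordinary t-test per miRNA it was 0.89, and with the copied array kept 1.67. In each of these settings the unadjusted p was above 0.05. Without 1 of the trastuzumab arrays the log2 fold change was 0.82 to 0.91, with no test. With the copied array kept under its label, the other 6 miRNAs turned to lower values in SKBR3, with log2 fold changes of -1.84 for hsa-miR-1825, -1.90 for hsa-miR-483-3p, -1.83 for hsa-miR-466, -1.32 for hsa-miR-4290, -1.73 for hsa-miR-3149 and -0.71 for hsa-miR-629-3p, and the same values with the replicate block. That array holds BT474 values, and none of the 6 had an unadjusted p under 0.05.

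The labels share replicate numbers but do not say that they pair the samples. Same-numbered BT474 arrays stood in the same slide column, replicate 1 in column 2 and replicate 2 in column 1. Their deviations correlated at 0.21 over 221 miRNAs detected on all 4 BT474 arrays. With the replicate block 13 miRNAs were called lower in BT474 and 0 passed the adjusted test (73 had an unadjusted p under 0.05), and with the copied array kept and the replicate block 8 were called higher in SKBR3. Each treatment held both replicate numbers in these fits, so the block could not change a log2 fold change, only its standard error.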
